A study of Oryza sativa with 4 samples.

Results

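The ascorbate peroxidase family of rice has 8 members here, OsAPX1 to OsAPX8, out of 55986 loci in the expression table. The members were selected on their family identity, as the 8 loci that carry these names, and the family was picked from these data with the OsGRF6-GFP peak at OsAPX1 and the levels of OsAPX1 already known, so its values are a description and carry no test. All 8 names were found in RefSeq's gene table (assembly ASM3414082v1), each on the chromosome that the expression table gives. The series examined genes controlled by OsGRF6, a growth-regulating transcription factor of the family that the microRNA miR396 represses. It held 4 libraries, 1 per group. RNA came from panicles, the rice inflorescence, during the formation of secondary branches, with 1 library from plants that carry p35S:MIM396 and 1 from the wild type Yutai B. MIM396 is a decoy RNA that sequesters miR396, and its promoter, p35S, is active in most cell types rather than in the panicle alone. The OsGRF6-GFP ChIP library and its input came from callus, a cultured undifferentiated tissue, of p35S:GRF6-GFP lines, so binding and expression were measured in different tissues and transgenic backgrounds. Plant age, the number of pooled panicles and the number of transgenic lines behind each library are not stated in the sources used here.

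Ascorbate peroxidases are heme enzymes that reduce hydrogen peroxide to water with ascorbate (vitamin C) as the electron donor. The oxidised ascorbate is regenerated by monodehydroascorbate reductase and dehydroascorbate reductase, and the glutathione used by the latter is kept reduced by glutathione reductase, which together form the ascorbate-glutathione cycle. The rice isoforms divide by location. OsAPX1 and OsAPX2 act in the cytosol, OsAPX3 and OsAPX4 are peroxisomal, and OsAPX5 to OsAPX8 are organellar, among them OsAPX7 of the chloroplast stroma and OsAPX8 of the thylakoid membrane, where photosynthetic electron transport produces hydrogen peroxide.

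Depth was 16337529 reads in the library labelled wild type and 13125593 reads in MIM396, as recovered from the authors' scaled counts. The library labelled wild type (Yutai B), here called the Yutai B library, differed from the MIM396 library in markers of its labelled tissue and of green tissue. A list of 13 panicle and meristem loci, whose identities rest on general knowledge of the rice annotation and not on the files, had at least 1 FPKM (a level scaled by transcript length and library size) at 5 loci in Yutai B and at 11 in MIM396, and 5 of the 13 had 0 reads in Yutai B. Of the 10 panicle loci above a mean of 1 FPKM, 7 were higher in MIM396 by 2-fold or more, 1 was lower and 2 were neither. Those 2 were abundant in both libraries, with 110.8 and 68.8 FPKM in Yutai B and 94.0 and 97.9 FPKM in MIM396. A green-tissue list of light-harvesting, Rubisco small subunit and Rubisco activase loci, drawn up in the same way, had 16 of its 17 loci in the table. These summed to 101272 FPKM in Yutai B, 11.9% of all FPKM there, with single loci between 78.1 and 17544 FPKM. In the MIM396 library they summed to 66.5 FPKM, 0.0131% of all FPKM, with single loci between 0.109 and 18.9 FPKM. The panicle list summed to 192.0 FPKM in Yutai B, mostly from the 2 loci abundant in both libraries. In MIM396 it summed to 1096 FPKM, of which 631.0 FPKM came from 1 locus. None of the 16 green-tissue loci was at 0 reads in either library. Both lists differ between the same 2 libraries as every ratio of the members, and their part in those ratios was not tested. With 1 library per group there is no replicate error, no difference between genotypes was tested, and no library can be left out. Intervals are 95% and cover counting error only. In bulk tissue, fewer cells of a type and less RNA per cell cannot be told apart.

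Of the 8 members, 1 was higher in MIM396 by 2-fold or more and 3 were lower, while 4 were neither. The limit was a log2 ratio of (FPKM + 1) of 1 in either direction with a mean of at least 1 FPKM, and all 8 members passed that floor in level. Among the 19456 loci above the floor, 23.1% were higher and 27.3% lower by the same limit. Bringing the libraries to equal totals of reads, in place of the authors' scaling, raised the median log2 ratio of all loci by 0.59, and 37.5% of loci were then higher and 20.0% lower. The members then counted 3 higher and 3 lower, because OsAPX3 and OsAPX6 crossed the limit, while OsAPX5 lay just inside it at a log2 ratio of 0.97. Abundant loci were past the limit more often. Of the 974 loci with a mean of 100 FPKM or more, a level chosen after the values were seen, 27.5% were higher and 46.4% lower, and the 4 members past the limit, OsAPX1, OsAPX2, OsAPX4 and OsAPX8, are all in this class. Set against these backgrounds, 1 higher and 3 lower of 8 is not a result about the family, and the values of each isoform are described instead.

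**Figure D1:**
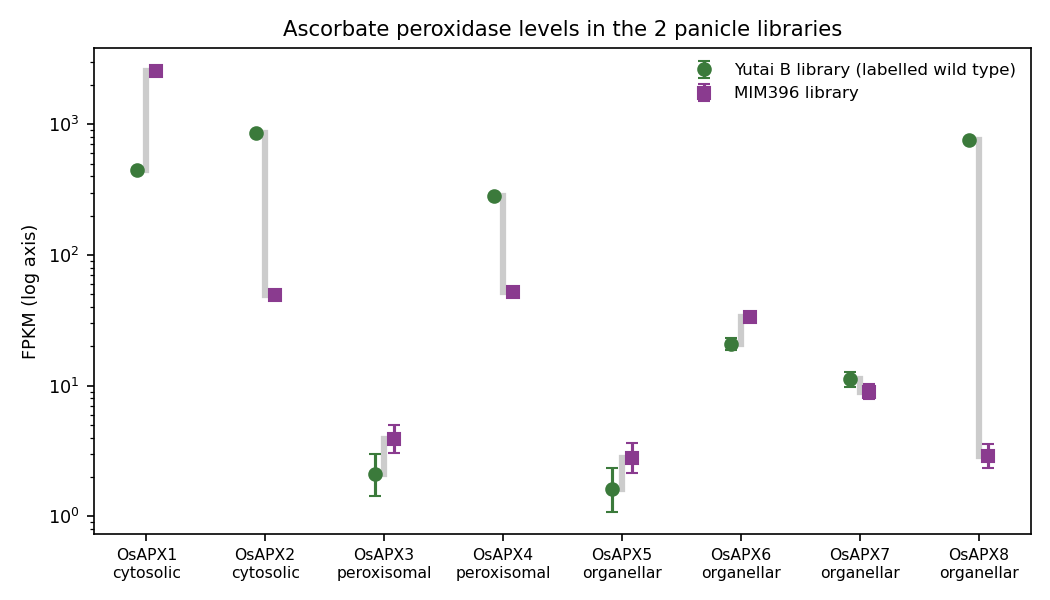
FPKM (log axis) of the 8 ascorbate peroxidase genes, with a circle for the Yutai B library, a square for the MIM396 library, a grey bar joining them and 95% Poisson intervals on the reads of each library (counting error only; many are smaller than the symbol). OsAPX1 lies higher in MIM396, OsAPX2, OsAPX4 and OsAPX8 lie lower, and OsAPX3, OsAPX5, OsAPX6 and OsAPX7 lie close together.

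The cytosolic isoforms differed between the libraries in opposite directions. OsAPX1 (LOC_Os03g17690, chromosome 3, 9843326 to 9846747) had 448.9 FPKM in Yutai B, from 6613 reads, and 2569 FPKM in MIM396, from 46929 reads, 5.67-fold higher in scaled reads (5.52 to 5.82). It ranked 206th of all loci in level in Yutai B and 10th in MIM396, and its ratio was the 1290th highest of the 19456. OsAPX2 (LOC_Os07g49400, chromosome 7, 29583716 to 29586497) had 854.2 FPKM in Yutai B, from 16662 reads, and 49.1 FPKM in MIM396, from 1188 reads. Its ratio of scaled reads was 17.6-fold lower in MIM396 (16.6 to 18.6). The isoform that was the more abundant of the pair thus differed by library. OsAPX2 stood at 1.90 times the FPKM of OsAPX1 in Yutai B, and OsAPX1 stood at 52.3 times the FPKM of OsAPX2 in MIM396. The OsAPX1 to OsAPX2 ratio of reads was 99.5 times as large in MIM396 as in Yutai B (93.3 to 106.1), a quantity in which the scaling of the libraries cancels. Summed over the pair, the level was 1303 FPKM in Yutai B and 2618 FPKM in MIM396.

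Of the peroxisomal isoforms, OsAPX4 was the abundant one in both libraries. OsAPX4 (LOC_Os08g43560, chromosome 8, 27555020 to 27559370) had 282.3 FPKM in Yutai B, from 5996 reads, and 52.1 FPKM in MIM396, from 1378 reads. It was 5.45-fold lower in MIM396 (5.14 to 5.78). OsAPX3 (LOC_Os04g14680, chromosome 4, 8239236 to 8241868) had 2.11 FPKM in Yutai B, from 30 reads, and 3.91 FPKM in MIM396, from 69 reads. Its ratio was 1.84 (1.18 to 2.92), under the 2-fold limit with the authors' scaling and past it with equal totals, where its log2 ratio was 1.13. OsAPX4 stood at 133.9 times the FPKM of OsAPX3 in Yutai B and at 13.3 times in MIM396. The levels of this pair lay closer together in MIM396, by a factor of 10.01 in reads (6.49 to 15.4).

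Among the organellar isoforms, OsAPX8 held nearly all of the summed level in Yutai B and little of it in MIM396. OsAPX8 (LOC_Os02g34810, chromosome 2, 20868259 to 20872079) had 763.3 FPKM in Yutai B, from 18813 reads, and 2.90 FPKM in MIM396, from 89 reads. It was 264.7-fold lower in MIM396 (215.0 to 329.8), and its log2 ratio of -7.61 was the 88th lowest of the 19456 loci. A level in MIM396 that was lower by 16-fold or more, with 1 FPKM added to both values, was seen for 5.01% of these loci and for 2 members, OsAPX2 and OsAPX8. The green-tissue list had a median log2 ratio of -10.45, with single loci between -12.63 and -6.16, so OsAPX8 lay inside the range of that list and OsAPX2 (-4.09) and OsAPX4 (-2.42) outside it. The part of green tissue in the OsAPX8 difference was not tested.

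The other organellar isoforms differed far less. OsAPX7 (LOC_Os04g35520, chromosome 4, 21622952 to 21627315) had 11.1 FPKM in Yutai B and 9.00 FPKM in MIM396, from 221 reads in each. Its direction rested on the scaling alone, with a log2 ratio of -0.28 under the authors' factors and 0.30 with equal totals. The more abundant of the stromal and thylakoid isoforms differed by library, and this difference lay almost wholly in the level of OsAPX8. OsAPX8 stood at 68.6 times the FPKM of OsAPX7 in Yutai B, and OsAPX7 at 3.10 times that of OsAPX8 in MIM396. OsAPX6 (LOC_Os12g07820, chromosome 12, 3955967 to 3959805) had 20.9 FPKM in Yutai B, from 357 reads, and 33.7 FPKM in MIM396, from 714 reads. Its ratio was 1.60 (1.40 to 1.82), and it passed the 2-fold limit with equal totals, at a log2 ratio of 1.28. OsAPX5 (LOC_Os12g07830, chromosome 12, 3960511 to 3964001) had 1.63 FPKM from 28 reads and 2.81 FPKM from 60 reads, a ratio of 1.71 (1.08 to 2.78).

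OsAPX5 and OsAPX6 are neighbours in the genome, with 705 bp between their intervals. OsAPX6 stood at 12.9 times the FPKM of OsAPX5 in Yutai B and at 12.0 times in MIM396, a change by a factor of 0.933 in reads whose interval spans 1 (0.586 to 1.49). It was the pair of isoforms whose relative level differed least among the 4 pairs compared, which were OsAPX1 with OsAPX2, OsAPX4 with OsAPX3, OsAPX6 with OsAPX5, and OsAPX8 with OsAPX7. Without OsAPX8, the organellar isoforms summed to 33.7 FPKM in Yutai B and 45.5 FPKM in MIM396. With it, they summed to 797.0 and 48.4 FPKM. The difference of the organellar sum was thus that of OsAPX8.

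**Figure D2:**
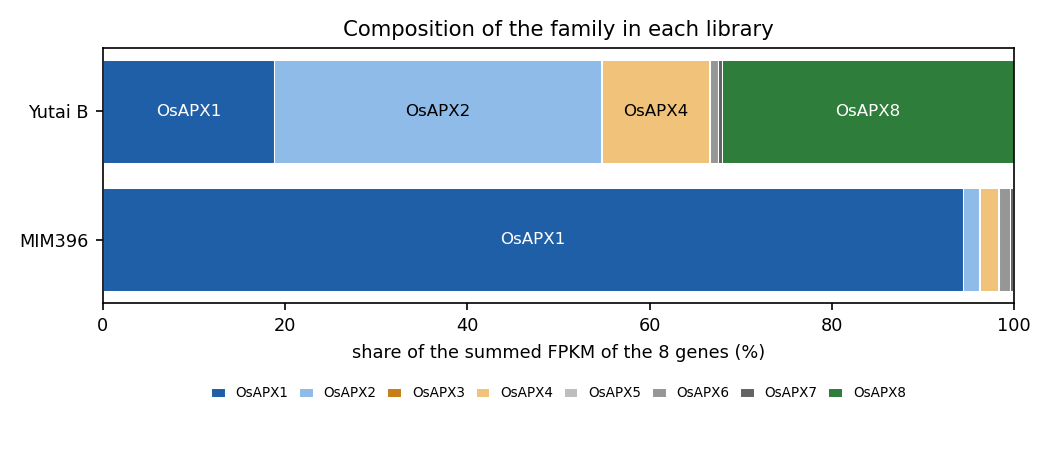
Share of the summed FPKM of the 8 genes (percent, horizontal axis) that each isoform held in the Yutai B library and in MIM396, with 1 colour per gene. OsAPX2, OsAPX8, OsAPX1 and OsAPX4 divide the Yutai B bar, and OsAPX1 fills 94.4% of the MIM396 bar.

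The composition of the family differed much more than its sum. The 8 genes summed to 2385 FPKM in Yutai B and 2722 FPKM in MIM396, 1.14 times as much under the authors' scaling, or a log2 ratio of 0.19, and 0.83 with equal totals, against the shift of 0.59 for all loci. Shares within the family do not depend on the scaling of the libraries. In Yutai B OsAPX2 held 35.8% of the summed FPKM, OsAPX8 32.0%, OsAPX1 18.8% and OsAPX4 11.8%. In the MIM396 library OsAPX1 held 94.4%, and OsAPX4 followed with 1.91% and OsAPX2 with 1.80%. By location, the cytosolic isoforms held 54.6% of the family in Yutai B and 96.2% in MIM396. The organellar isoforms held 33.4% and 1.78%, and the peroxisomal ones 11.9% and 2.06%. Without OsAPX1, the other 7 genes summed to 1936 FPKM in Yutai B and 153.5 FPKM in MIM396, a 12.6-fold lower sum in MIM396.

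The order of the levels per transcript length was OsAPX2, OsAPX8, OsAPX1, OsAPX4, OsAPX6, OsAPX7, OsAPX3 and OsAPX5 in Yutai B. Only the neighbours OsAPX3 (1.42 to 3.01 FPKM) and OsAPX5 (1.08 to 2.35 FPKM) had overlapping counting intervals. In the MIM396 library the order was OsAPX1, OsAPX4, OsAPX2, OsAPX6, OsAPX7, OsAPX3, OsAPX8 and OsAPX5. There the intervals of OsAPX4 (49.4 to 54.9 FPKM) and OsAPX2 (46.3 to 52.0 FPKM) overlapped, and those of OsAPX3 (3.04 to 4.95 FPKM), OsAPX8 (2.33 to 3.57 FPKM) and OsAPX5 (2.14 to 3.61 FPKM) all overlapped one another. In both libraries OsAPX6 lay above OsAPX7, and OsAPX7 above OsAPX3 and OsAPX5, whose order was not resolved in either library. Reads that match more than 1 isoform may be divided between family members, and the sources used here do not say how such reads were counted. No locus was named for a pattern like that of a member, since over 2 libraries any pair of loci has a correlation of 1 or -1.

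**Figure D3:**
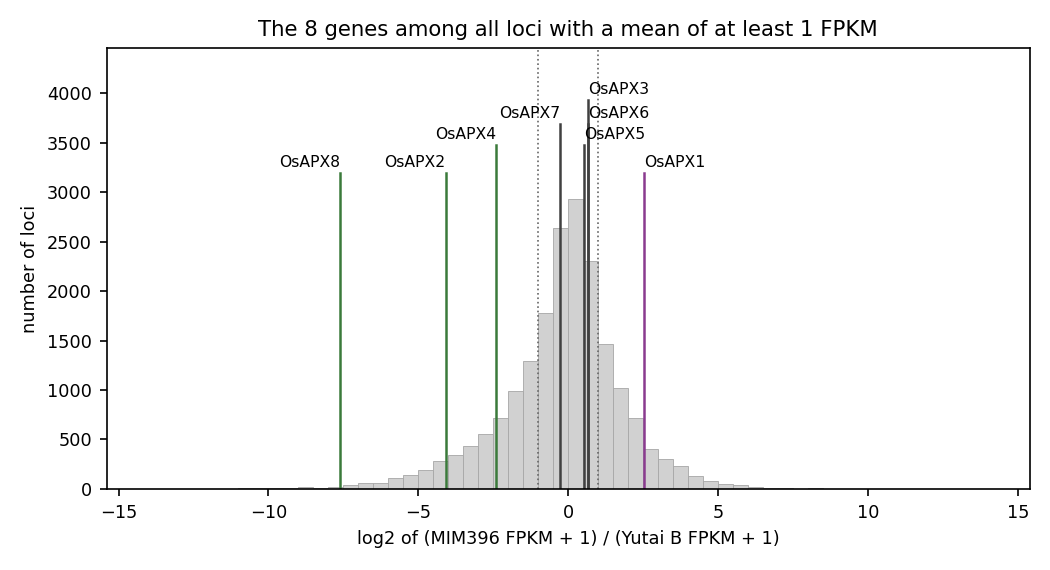
Histogram of log2((MIM396 FPKM + 1) / (Yutai B FPKM + 1)) over the 19456 loci above the floor of 1 FPKM (horizontal axis, bins of width 0.5; vertical axis, number of loci), with a vertical line for each ascorbate peroxidase gene and dotted lines at the limits of -1 and 1. OsAPX8 lies in the far lower tail at -7.61, OsAPX1 on the upper side at 2.51, and OsAPX3, OsAPX5, OsAPX6 and OsAPX7 between the limits.

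In the authors' deposited table, 1 of the 8 members had an FDR, the authors' adjusted p-value from an unstated test, under 0.05, as did 4.95% of all 55986 loci. This was OsAPX8, at 0.000307 with a log2 ratio of -8.04. The share of 4.95% is over all loci, of which only 24720 had reads in Yutai B and 24527 in MIM396. All 8 members had reads in both libraries, and a share among loci with reads was not computed. The FDR in the authors' deposited table was 0.366 for OsAPX2, 0.376 for OsAPX4 and 0.675 for OsAPX1, the last at a log2 ratio of 2.52. For the 4 members inside the 2-fold limit, the authors' deposited table gave FDR values from 0.628 (OsAPX3) to 0.872 (OsAPX7).

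The binding data address whether any member lies at a site occupied by OsGRF6-GFP in callus. OsAPX1 was the only member placed at a peak, and its peak is part of how the family came to be picked. The authors' list placed 175 of the 55986 loci at a peak, 0.313%. Peak 63 (chromosome 3, 9842814 to 9843617) covers the start of the OsAPX1 gene model (9843336 to 9846670), which the table describes as similar to L-ascorbate peroxidase and names APX1. The authors placed the peak both over the gene and within 1 kb upstream, which sets the start of the gene at the lower coordinate. The peak reaches 522 bp upstream of that start and 282 bp into the gene model, so 64.9% of its length lies before the start and 8.46% of the gene model is covered. Its centre lies 120.5 bp before the start. Its width of 804 bp made it the 2nd narrowest of the 142 listed peaks, whose median width was 1182 bp, and no other gene model was placed at it.

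**Figure D4:**
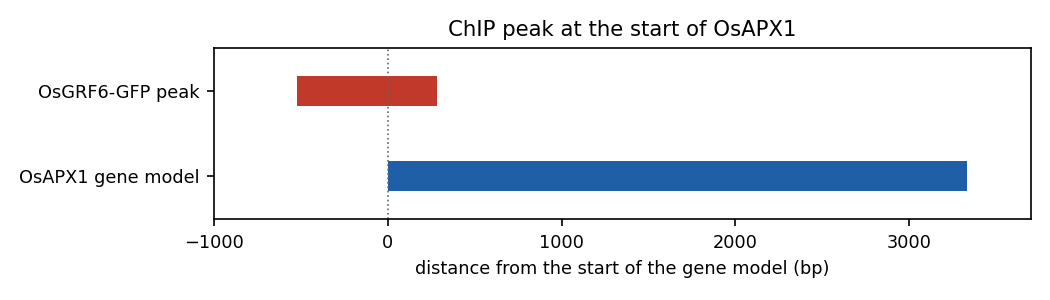
Position of the OsGRF6-GFP peak (upper bar) and of the OsAPX1 gene model (lower bar, 3335 bp, exons not drawn) as distance in bp from the start of the gene model (dotted line at 0). The peak runs from 522 bp before the start to 282 bp into the gene.

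The other 7 members were not placed at a peak. Their chromosomes held only 7 to 14 listed peaks each, and their distances to a peak were not compared with those of other loci. The nearest listed peak was 214.2 kb from OsAPX7, 225.2 kb from OsAPX8, 517.9 kb from OsAPX6, 522.4 kb from OsAPX5 and 730.2 kb from OsAPX2. It was 3342 kb from OsAPX4 and 11835 kb from OsAPX3. The list held 142 peaks, but their numbers ran to at least 184, so distances to any unlisted peak are not known. Among the 175 loci at peaks, OsAPX1 had the highest FPKM in MIM396 and the 3rd highest in Yutai B. Its log2 ratio was the 14th highest of the 147 of these loci above the floor. The family was picked with the peak and the levels of OsAPX1 known, so these ranks are a description. The peak comes from 1 ChIP library in callus, and whether OsGRF6 occupies this site in panicles was not measured.

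The loci beside the members were mixed in direction. On either side of OsAPX1, LOC_Os03g17680, 10142 bp away, had 41.0 FPKM in Yutai B and 4.07 FPKM in MIM396. LOC_Os03g17700, 951 bp away, had 10.6 and 3.02 FPKM. Both were thus lower in MIM396 where OsAPX1 was higher. Next to OsAPX2, LOC_Os07g49390, 565 bp away, had 3.54 FPKM in Yutai B and 24.2 FPKM in MIM396, the opposite direction to OsAPX2, whereas LOC_Os07g49410 had 45.8 and 10.7 FPKM. Next to OsAPX4, LOC_Os08g43550 had 20.7 FPKM in Yutai B and 3.17 FPKM in MIM396, the same direction as OsAPX4. Beside OsAPX3, LOC_Os04g14690 had 91.3 FPKM in Yutai B and 9.63 FPKM in MIM396. Beside OsAPX7, LOC_Os04g35510 had 3.30 and 35.8 FPKM and LOC_Os04g35530 had 6.88 and 0.628 FPKM, in the same order of libraries. The remaining neighbours of OsAPX3 and OsAPX4, and those outside the OsAPX5 and OsAPX6 pair, were under the floor. The loci flanking OsAPX8 had 1 read in Yutai B at LOC_Os02g34800 and 0 reads otherwise. No member's interval overlapped that of another locus in the table.

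Other enzymes of hydrogen peroxide metabolism and ascorbate recycling were taken from a list of 19 loci, among them 6 superoxide dismutases, which produce hydrogen peroxide. Their identities again rest on general knowledge and not on the files, so they are given by class. Above the floor were 18 loci, of which 4 passed the 2-fold limit as higher in MIM396, 9 as lower and 5 neither way. Of all loci above the floor, 23.1% were higher and 27.3% lower. The list holds abundant loci, up to 1351 FPKM in Yutai B, and of all loci with a mean of 100 FPKM or more, 27.5% were higher and 46.4% lower. The counts are therefore given as a description and not as a result about these enzymes. The 18 loci had a median log2 ratio of -0.98, against a median of 0.00 over all loci above the floor. With equal totals the counts were 6 higher and 7 lower, beside 37.5% and 20.0% of all loci, and the median was -0.36 against 0.59 over all loci. None of the 19 loci was placed at a peak. With 0.313% of all 55986 loci at a peak, this count is not a result about the list.

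Catalases, which break down hydrogen peroxide without ascorbate, showed the widest spread of the 5 classes. Of 3 loci, 2 were lower in MIM396 and 1 higher, with log2 ratios from -9.99 to 1.65, and their summed level was 2487 FPKM in Yutai B and 200.8 FPKM in MIM396. Superoxide dismutases, which produce hydrogen peroxide from superoxide, were 2 higher, 2 lower and 2 neither, and summed to 772.6 and 905.4 FPKM. Of the recycling enzymes, both dehydroascorbate reductase loci were lower in MIM396, with a sum of 581.7 FPKM in Yutai B and 103.8 FPKM in MIM396. The 4 monodehydroascorbate reductase loci above the floor, of 5 listed, were 1 higher, 2 lower and 1 neither, and the 5 loci summed to 302.5 and 133.9 FPKM. The 3 glutathione reductase loci were 1 lower and 2 neither, and summed to 108.1 and 59.6 FPKM. Like the ascorbate peroxidases, the catalases, superoxide dismutases and monodehydroascorbate reductases held members on both sides of the limit. The ascorbate peroxidase sum was 1.14 times as large in MIM396 as in Yutai B under the authors' scaling, and the catalase sum was 12.4 times as large in Yutai B as in MIM396.

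**Figure D5:**
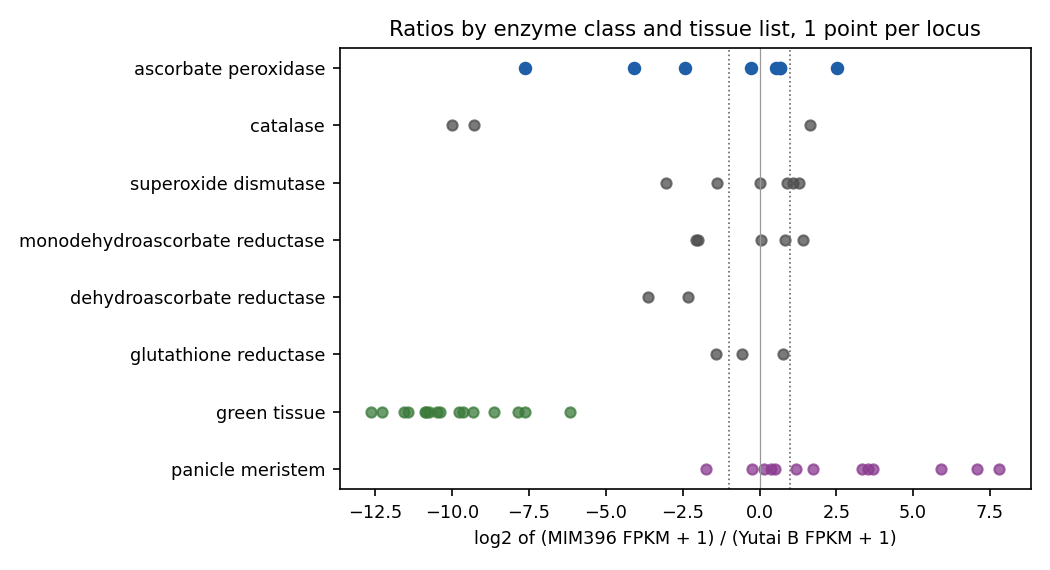
Log2((MIM396 FPKM + 1) / (Yutai B FPKM + 1)) of single loci (horizontal axis, 1 point per locus, loci under the floor included) for the 8 ascorbate peroxidase genes, 5 other enzyme classes and the green-tissue and panicle lists, with dotted lines at -1 and 1. The green-tissue points lie between -12.63 and -6.16, a range that holds OsAPX8 and 2 catalase loci.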

How the data were processed

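Chromatin was sonicated and a TruSeq kit served for the RNA libraries, per the labels' protocols. FastQC and Bowtie are named in the submitters' processing notes, with no version. The counter, build, annotation release and strand setting are not given in the sources used, and coordinates are as the authors' files print them. The expression table holds FPKM computed by the authors, a deposited read signal per locus, an FDR (adjusted p-value) and log2 ratios deposited by the authors, which were treated as a score because loci at 0 carry an overflow value. The deposited signal was in whole multiples of 1.057 (Yutai B, the wild type) and 0.844 (MIM396), so dividing by these steps and rounding gave reads, within 0.01 of a whole number for 98.5% and 99.0% of positive values. The peak table's positions are the authors' own, from 1 ChIP library with MACS identifiers, per the file headers.

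The columns headed YB were taken as the wild type Yutai B. Expression was compared as log2 of (FPKM + 1), which understates differences of low loci, with a 2-fold limit and a floor of a mean of 1 FPKM. Ratios of single genes are of scaled reads with exact conditional binomial (Clopper-Pearson) intervals, ratios between pairs carry 95% intervals of a sample odds ratio (normal approximation on the log scale), and levels carry exact Poisson intervals. Without molecular identifiers, reads are not independent molecules, so intervals and floors cover counting error only. With 1 library per group no test was run. Alternatives were the pseudocount, the floor, equal totals, TMM scaling (edgeR 4.0.16, R 4.3.3) and leaving out the 50 most abundant loci. The calculations were also run on simulated reads with set fold changes and Poisson counting error only. Those reads hold no variation between plants or libraries, so they check the arithmetic and not the differences reported here. Python 3.11.15, SciPy 1.17.1 and matplotlib 3.10.9 were used. The members, the lists and the alternatives were chosen with earlier results of these data known. All 8 members are named, and other loci only as direct neighbours. A planned motif search was left out because no promoter sequence was used here.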

Additional observations from a re-analysis of the deposited data

How the results depend on the processing

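The 3 members at least 2-fold lower in MIM396 remained 3 in count under each of the 7 alternatives for pseudocount, scaling and floor. The 1 member at least 2-fold higher became 3 with equal totals of reads. It stayed at 1 under the other alternatives, but without each library's 50 most abundant loci the counted member was OsAPX6 (log2 ratio 1.05), because OsAPX1 was itself among the loci left out and has no value there, nor have the family and cytosolic sums. The log2 ratio of the summed FPKM moved from 0.19 to 0.83 with equal totals, by that setting's own shift of 0.64 between the libraries, and lay between 0.19 and 0.20 under both pseudocounts and TMM scaling. Over all settings with a value, the log2 ratio ran from 2.50 to 3.15 for OsAPX1, from -4.12 to -3.46 for OsAPX2, from -2.44 to -1.78 for OsAPX4 and from -7.99 to -6.60 for OsAPX8. OsAPX7 ran from -0.30 to 0.30. The count of 1 member at a peak was the same for listed peaks that overlap the locus and for listed peaks within 10 kb. No paired analysis was possible because each group holds 1 library, and no replicate could be left out. Depth limits OsAPX3 and OsAPX5, with 28 to 69 reads per library.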
